A study of Homo sapiens with 6 samples.

Results

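The 35 genes described here build and guard the protein folding system of the endoplasmic reticulum (ER) or belong to the amino acid response that runs through the transcription factor ATF4. The rule lists them by name and role, and the list was drawn up with earlier results of these data known. All 35 were found by NCBI gene ID among the 26347 gene rows of the count table, and all 35 passed the filter on low counts, which kept 14731 genes for testing. They fall into 6 lectin chaperones and disulphide-forming enzymes, 8 HSP70 and HSP90 chaperones with their partners, and 4 genes of ER-associated degradation. The others are 4 genes for the stress sensors and XBP1, 6 stress transcription factors and regulators around ATF4, and 7 genes of amino acid supply and glutathione.

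RNA was sequenced from THP-1, a human line established from monocytic leukaemia, grown in RPMI medium with serum. A mimic is a synthetic microRNA brought into cells by transfection, here 24 h before collection. The cells received the miR-125a-5p mimic in 3 libraries and a negative control microRNA mimic in 3 libraries. All 6 libraries come from the same line and all cells were transfected, so no library shows unmanipulated cells. Macrophages are named in the title of the series, while the labels of the samples give monocytic cells and no differentiation step. The design text calls the transfections triplicate and does not state whether they began from separate cultures, so the p-values rest on a spread between libraries that may be only technical.

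Proteins that enter the ER are folded with the help of chaperones such as BiP (HSPA5) and, if they carry sugar chains, by calnexin (CANX) and calreticulin (CALR). When unfolded proteins build up, the sensors IRE1 (ERN1), PERK (EIF2AK3) and ATF6 start the unfolded protein response. ATF6 and the spliced form of XBP1 switch on chaperone and degradation genes. PERK and other kinases favour translation of ATF4, which switches on genes for amino acid synthesis and import. Monocytes and macrophages secrete and recycle much membrane protein and depend on this system.

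The mimic and its possible pairing sites are shown first, since a site in the 3′ untranslated region (3′ UTR) is what a microRNA would act on directly. The mature RNA is given 5′ to 3′ from RefSeq on GRCh38.p14, with the seed (bases 2 to 8) in capitals.
hsa-miR-125a-5p: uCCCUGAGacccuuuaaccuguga

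In the longest 3′ UTR annotated by GENCODE release 29 on GRCh38, 12 of the 35 genes held at least the 6-base core TCAGGG (34.3%), against 4773 of 12789 tested genes with an annotated 3′ UTR (37.3%). A site of 7 or 8 bases was present in 5 of the 35 (14.3%), against 24.3% of tested genes. SYVN1 carried the only full 8-base site. EDEM1 carried 3 sites of 7 bases, and PDIA3, ATF6 and SEL1L carried 1 each. CANX had no 6-base match. The sites of 7 or 8 bases, and the 6-base match of ATF5, are printed with the matching bases in capitals, each on the strand of its gene.
SYVN1, 8-base site, chr11:65127809-65127816, minus strand, exon 16 of 16: tggcaaccacacaaCTCAGGGAaag
EDEM1, 7-base site, chr3:5216953-5216959, plus strand, exon 12 of 12: tgccaattagctaaaTCAGGGAgaa
EDEM1, 7-base site, chr3:5218906-5218912, plus strand, exon 12 of 12: cattgtaactgaatcCTCAGGGctt
EDEM1, 7-base site, chr3:5219497-5219503, plus strand, exon 12 of 12: ccaggtttcacagggCTCAGGGtta
PDIA3, 7-base site, chr15:43771313-43771319, plus strand, exon 13 of 13: tgggaattattacctCTCAGGGccg
ATF6, 7-base site, chr1:161959294-161959300, plus strand, exon 16 of 16: cctaaacaaagggggTCAGGGAgtg
SEL1L, 7-base site, chr14:81476802-81476808, minus strand, exon 21 of 21: ctgatgcctttatttTCAGGGAtaa
ATF5, 6-base match, chr19:49933628-49933633, plus strand, exon 3 of 3: caaatgaggaagtaagTCAGGGcgg

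The promoters of these genes were searched for the elements through which their stress responses are known to run. Windows of 300 bases around annotated starts (250 before, 50 after, RefSeq on GRCh38.p14) were given for 32 of the 35 genes, and PDIA3, SHMT2 and SLC7A11 had none. Both strands of every window of a gene were read. The ER stress element, bound by ATF6 together with NF-Y, was read as CCAAT, then any 9 bases, then CCACG. It was found in 7 of 32 genes (21.9%), against 0.148% of 11451 tested genes with a window and 0.0916% of all 27305 genes with one. All 7 were chaperone genes or XBP1. The element holds a CCAAT box, which on its own was present in 26 of the 32 (81.3%) and in 42.9% of tested genes. The C/EBP-ATF element TGATGNAA, a form of the site bound by ATF4 with a C/EBP partner, was found in 6 of 32 genes (18.8%), against 2.89% of tested genes. Of these 6, 3 were among the 5 searched genes of amino acid supply, 2 among the stress transcription factors, and the other was HERPUD1. The genes were listed for their role in the responses that these elements serve, so the higher shares are a description and not a test. The members are themselves among the tested genes, and 7 of the 17 tested genes with an ER stress element are members. The matches describe these letters only and do not show binding. In the sequences the capitals mark CCAAT and CCACG, each printed on the strand that carries the motif.
CANX, chr5:179698778-179698796, plus strand: cggCCAATcttcacactCCACGaag
CALR, chr19:12938384-12938402, minus strand: cgaCCAATgatggtcgaCCACGcgt
PDIA6, chr2:10812853-10812871, minus strand: ggaCCAATgagccgcagCCACGgct
HSPA5, chr9:125241391-125241409, minus strand: tcaCCAATcggcggcctCCACGacg
HSP90B1, distal, chr12:103930216-103930234, plus strand: tgaCCAATcggaaggagCCACGctt
HSP90B1, proximal, chr12:103930321-103930339, minus strand: ccaCCAATcgcgccgcaCCACGcac
CRELD2, chr22:49918554-49918572, minus strand: ggcCCAATccgagttcgCCACGaga
XBP1, chr22:28800603-28800621, minus strand: tggCCAATcgcggagggCCACGacc

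The C/EBP-ATF elements follow, with the 8 matching bases in capitals.
ASNS, chr7:97872469-97872476, minus strand: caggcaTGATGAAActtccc
CHAC1, chr15:40953262-40953269, minus strand: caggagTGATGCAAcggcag
SLC3A2, chr11:62881736-62881743, minus strand: ggagcTGATGTAAggagtc
CEBPG, chr19:33374071-33374078, plus strand: ggcgtcTGATGCAAcctgcc
ATF3, chr1:212565216-212565223, plus strand: tcaggaTGATGGAAggctgt
HERPUD1, chr16:56931966-56931973, minus strand: acgggcTGATGCAAcccgcc

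**Figure D1:**
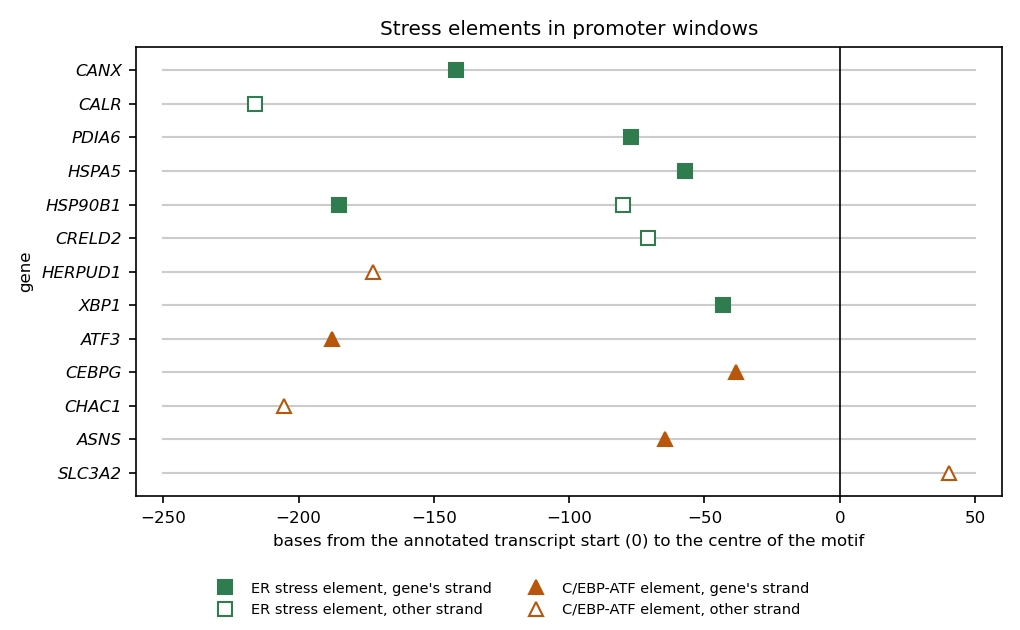
Position of each ER stress element (squares) and C/EBP-ATF element (triangles) in the 300-base promoter windows, with bases from the annotated start on the x axis and 1 gene per row. Filled symbols lie on the gene's strand and open ones on the other strand; HSP90B1 has 2 ER stress elements, and no gene has both kinds.

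The libraries held 8256149 to 10257791 counts. In a principal component analysis miR-125a-5p library 3 stood apart on the second component, at -31.1 where the other 5 had -5.24 to 21.5. Control library 1 stood apart on the first, at 38.2 where the other 5 had -16.3 to -1.14. Levels are given as CPM, the count of a gene scaled to a common library size after the trimmed mean of M-values (TMM) correction. Monocyte markers summed to 2423 to 2592 CPM in the miR-125a-5p libraries and 2497 to 2621 CPM in the control libraries, with 10 of 10 markers above the filter. Fibroblast, epithelial and erythroid markers summed to at most 3.20 CPM in any library. The T and NK cell list reached 41.9 to 52.8 CPM in the miR-125a-5p libraries and 49.0 to 53.3 CPM in the control libraries, mostly from NKG7 and GNLY, and the B cell list 45.0 to 62.7 CPM in the miR-125a-5p libraries and 54.0 to 86.5 CPM in the control libraries, mostly from PAX5. CD3E, JCHAIN, LUM, KRT18, KRT19, HBA1, HBA2 and HBB held 0 counts in all 6 libraries. In such bulk libraries fewer cells with a transcript and less of it per cell cannot be told apart.

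Per transcript length, HSP90B1, CALR, HSPA5 and CANX were among the most abundant transcripts of these cells, while other chaperone genes such as DNAJB9 and CRELD2 were at moderate levels. Levels between genes are compared in TPM, which divides the count of a gene by its merged exon length (GENCODE 29). That length joins all annotated transcripts of a gene and can exceed the length of those expressed. The SD between libraries does not cover this. HSP90B1, the ER form of HSP90, was highest at 1585 ± 141 TPM in miR-125a-5p libraries and 1493 ± 185 TPM in control libraries (SD, n = 3 each). CALR followed at 994 ± 31.0 TPM in miR-125a-5p libraries and 1065 ± 27.8 TPM in control libraries. HSPA5 stood at 719 ± 82.7 TPM in miR-125a-5p libraries and 743 ± 78.5 TPM in control libraries. CANX stood at 889 ± 33.1 TPM in miR-125a-5p libraries and 700 ± 81.1 TPM in control libraries. In control libraries the mean TPM of HSPA5 and CANX differed by less than the SD of either. Both genes were read in the same libraries, so these SDs do not measure the spread of their difference. In miR-125a-5p libraries the mean TPM of CANX lay above that of HSPA5, by more than the SD of either.

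EDEM1, PDIA6 and PDIA3 formed the next step in control libraries, at 327 ± 3.12, 321 ± 22.1 and 317 ± 44.0 TPM, with overlapping ranges of mean ± SD. ATF4, whose protein is controlled mainly by translation, was at 265 ± 17.4 TPM in miR-125a-5p libraries and 275 ± 0.709 TPM in control libraries. In control libraries 10 of the 35 genes lay at or above percentile 90 of the tested genes. The stress sensors were lower. ATF6 had 74.4 ± 3.39 TPM in miR-125a-5p libraries and 74.0 ± 1.78 TPM in control libraries. ERN1 had 9.42 ± 0.695 TPM in miR-125a-5p libraries and 7.97 ± 1.27 TPM in control libraries, and EIF2AK3, with 11.3 ± 0.511 TPM in control libraries, was close to it. CHAC1, an enzyme that breaks down glutathione and is strongly induced under ATF4, was lowest at 2.44 ± 0.327 TPM in miR-125a-5p libraries and 2.88 ± 1.42 TPM in control libraries. Its raw counts were 6 to 20 per library.

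**Figure D2:**
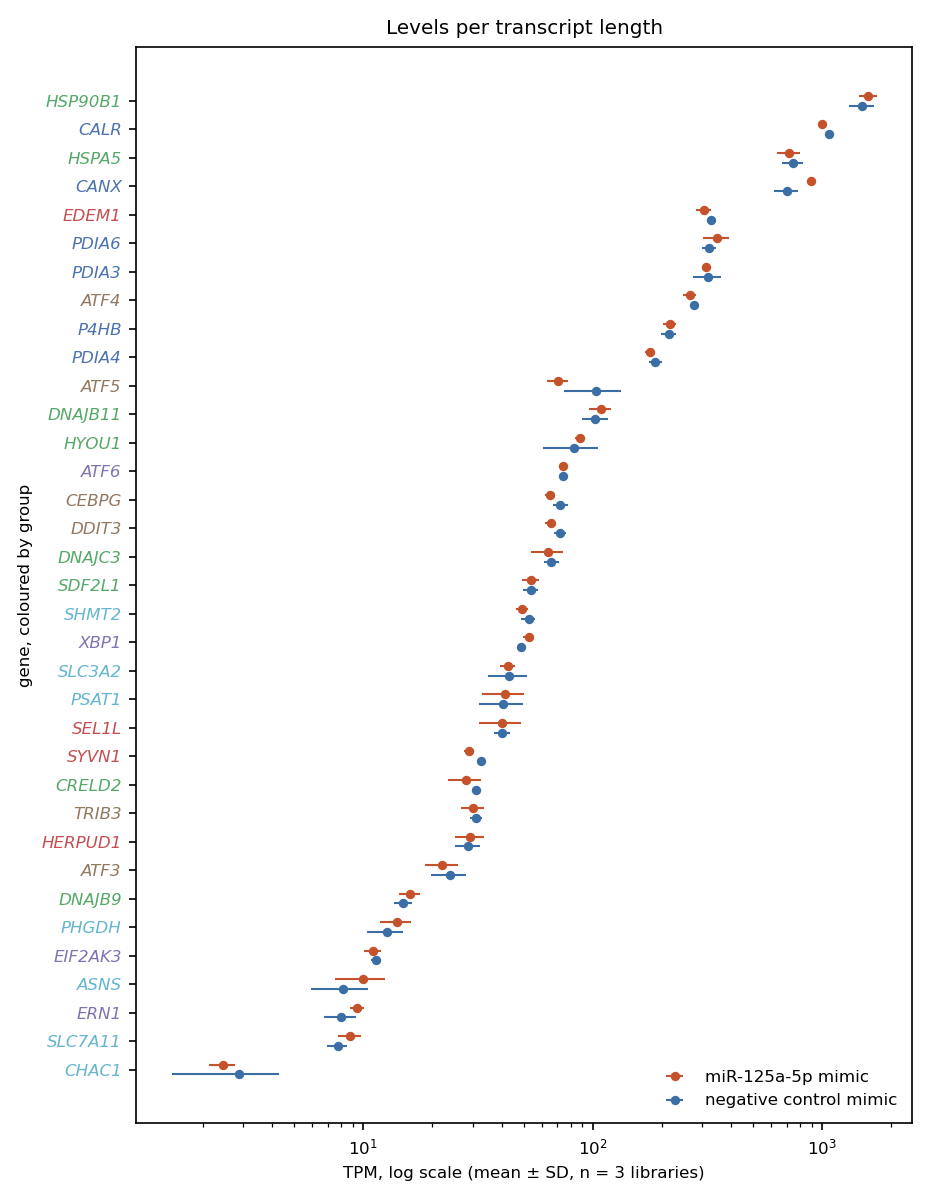
Level per transcript length of the 35 genes in TPM on a log axis, as mean ± SD of 3 miR-125a-5p libraries (red) and 3 control libraries (blue), ordered by the control mean and with gene names coloured by group. HSP90B1 is highest and CHAC1 lowest, and the mean points of the groups lie furthest apart for ATF5 and CANX. The SD bars of ATF5 overlap, at 70.7 ± 7.50 TPM in miR-125a-5p libraries and 104 ± 28.4 TPM in control libraries.

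The comparison asked which of these transcripts differed after the miR-125a-5p mimic. None of the 35 passed edgeR's quasi-likelihood test after Benjamini-Hochberg adjustment over 14731 genes, and DESeq2 and limma voom also called 0. Over all genes this rule called 0.0% higher and 0.0272% lower. At an unadjusted edgeR p under 0.05 there were 2 of the 35 (5.71%), CANX on the higher side and ATF5 on the lower, against 5.92% of all tested genes. The miR-125a-5p libraries did not overlap the control libraries for 2 of the 35 (5.71%), CANX and SYVN1, against 11.2% of all tested genes. Both shares are at or below the background.

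The log2 fold changes, miR-125a-5p over control, were positive for 15 and negative for 20 of the 35, with a median of -0.0087 beside 0.0011 over all tested genes. For 31 of the 35 the size was under 0.25 (88.6%), against 75.6% of all tested genes. The median SE was 0.12 for the 35 and 0.17 for all tested genes. The 95% interval of the edgeR fit, not adjusted for the number of genes, lay within -0.5 to 0.5 for 28 of the 35 and within -1 to 1 for 34, with CHAC1 the exception.

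**Figure D3:**
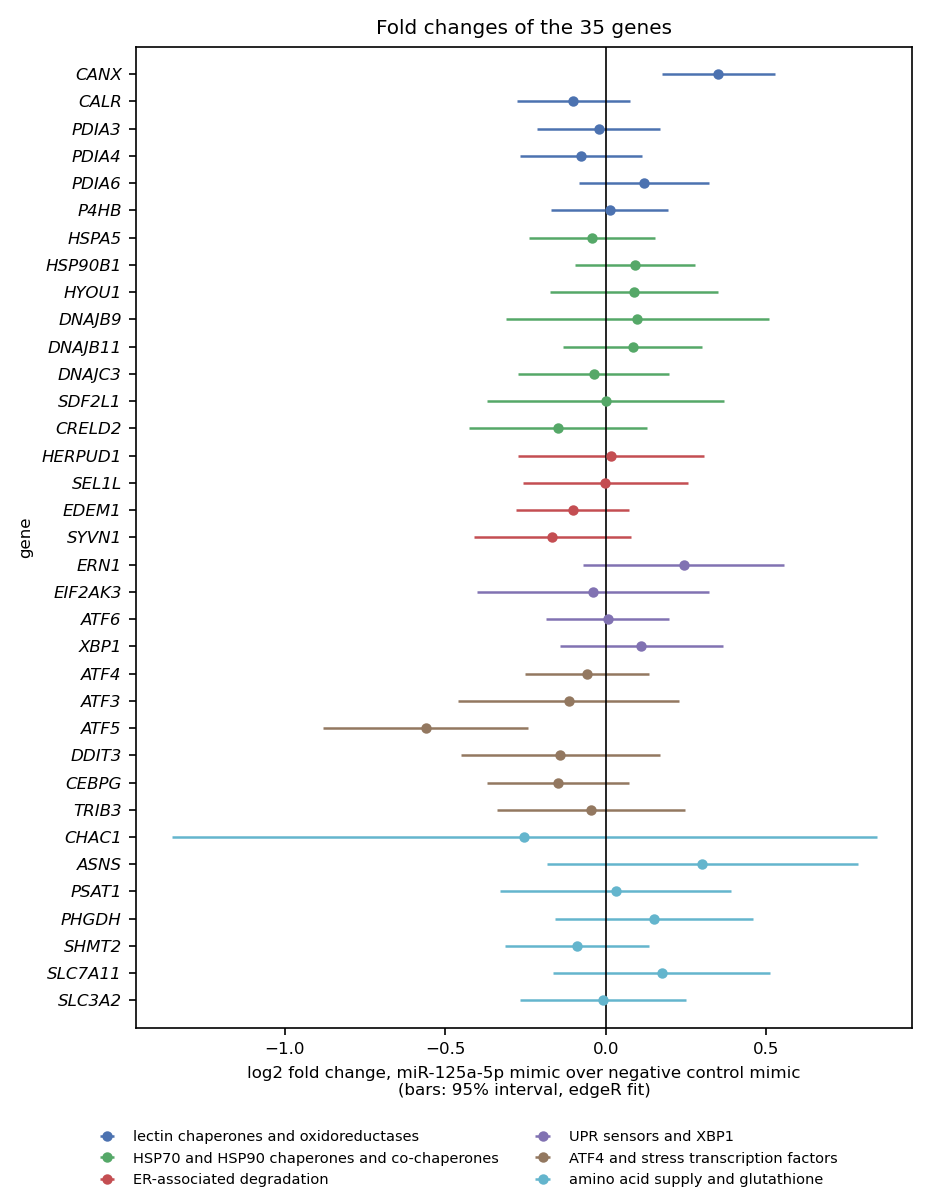
Log2 fold change (miR-125a-5p over control) of the 35 genes on the x axis with 95% intervals from the edgeR fit, 1 gene per row, coloured by group. The intervals of 33 genes hold 0; those of CANX (0.17 to 0.53) and ATF5 (-0.88 to -0.24) do not, and neither gene passed after adjustment.

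Among the lectin chaperones, CANX had the smallest p of the 35. CANX (NCBI gene 821) is the membrane-bound chaperone that holds new glycoproteins until they are folded. It stood at 1522, 1532 and 1408 CPM in miR-125a-5p libraries 1, 2 and 3, against 1066, 1175 and 1260 CPM in control libraries 1, 2 and 3. Every miR-125a-5p library lay above every control library. The means were 1487 ± 69.2 CPM in miR-125a-5p libraries and 1167 ± 97.0 CPM in control libraries (SD, n = 3 each), with a log2 fold change of 0.35 (SE 0.085). That is a level 27.4% higher (95% interval 12.8% to 44.0%), with an edgeR p of 0.000402 and an adjusted p of 0.296. Over the alternatives the adjusted p ran from 0.0202 to 0.886, and CANX passed only without the filter on low counts. Without control library 1, the library that stood apart and held the lowest CANX level, the log2 fold change was 0.29.

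CALR, the soluble counterpart of CANX with the same sugar-binding role, did not share this pattern. It had 700, 761 and 709 CPM in miR-125a-5p libraries 1 to 3, against 830, 758 and 739 CPM in control libraries 1 to 3. The groups overlapped, and the log2 fold change was -0.10 (95% interval -0.28 to 0.074, adjusted p = 0.919). For each CALR count there were 2.17, 2.01 and 1.99 counts of CANX in miR-125a-5p libraries 1 to 3, against 1.28, 1.55 and 1.70 in control libraries 1 to 3. For each count of PDIA3, the oxidoreductase that works with both lectins, there were 4.14, 4.29 and 4.19 of CANX in miR-125a-5p libraries, against 3.35, 3.21 and 3.21 in control libraries. These ratios were chosen after the values were seen and are given as a description. They show unequal levels and not which of the genes moved.

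The other disulphide enzymes lay close to 0. PDIA3, PDIA4 and P4HB had log2 fold changes of -0.022, -0.077 and 0.012, and their intervals ended no further out than -0.27 and 0.19. PDIA6 had 417, 409 and 323 CPM in miR-125a-5p libraries 1 to 3, against 345, 343 and 371 CPM in control libraries 1 to 3, with a log2 fold change of 0.12 (adjusted p = 0.919). ATP6V1C2, on the opposite strand, shares 25.2% of the exon bases of PDIA6 and had 361, 344 and 273 CPM in miR-125a-5p libraries, against 300, 298 and 309 CPM in control libraries. The strand setting of the counts is not given in the sources used here, so reads of this pair cannot be told apart. PDIA3 has a near copy, PDIA3P1, with 55.9 to 63.7 CPM in miR-125a-5p libraries and 57.8 to 65.2 CPM in control libraries, which could hold part of its reads.

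HSPA5 (NCBI gene 3309) encodes BiP, the HSP70 of the ER and the usual readout of ATF6 activity. It had 786, 829 and 646 CPM in miR-125a-5p libraries 1 to 3, against 714, 796 and 819 CPM in control libraries 1 to 3. The lowest value belonged to miR-125a-5p library 3 and the groups overlapped. The log2 fold change was -0.043 (SE 0.095, 95% interval -0.24 to 0.15, edgeR adjusted p = 0.972), and in percent of the control level the interval ran from -15.3 to 11.2. HSP90B1 had 2058, 2161 and 1771 CPM in miR-125a-5p libraries and 1700, 1882 and 2044 CPM in control libraries, with a log2 fold change of 0.090 and an interval of -0.096 to 0.28.

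The partners of BiP were also spread around 0. HYOU1, its nucleotide exchange factor, had 173, 193 and 176 CPM in miR-125a-5p libraries, against 122, 195 and 193 CPM in control libraries. Control library 1 alone was low, and without it the log2 fold change was -0.11 in place of 0.088. The J-domain proteins DNAJB9, DNAJB11 and DNAJC3, which bring clients to BiP, had 0.098, 0.084 and -0.038. SDF2L1, a partner of the J-domain proteins, had -0.00018. CRELD2, an ER protein induced by stress, had 37.8, 46.0 and 32.5 CPM in miR-125a-5p libraries and 43.6, 41.1 and 44.4 CPM in control libraries, with a log2 fold change of -0.15 (adjusted p = 0.926).

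In 7 of these 8 HSP70 and HSP90 genes the lowest of the 6 libraries was miR-125a-5p library 3 (3 genes) or control library 1 (4 genes), the libraries that stood apart. Of all tested genes, miR-125a-5p library 3 was lowest for 17.9% and control library 1 for 20.8%. The median of the 8 genes on the log2 CPM scale, relative to the control mean, lay at 0.081, 0.11 and -0.10 for miR-125a-5p libraries 1, 2 and 3. In control libraries 1, 2 and 3 it was -0.11, 0.040 and 0.063. The spread within a group was thus wider than the median log2 fold change of these genes, 0.042. The part that the state of these libraries plays in these values was not tested.

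Genes of ER-associated degradation, which extracts misfolded proteins for the proteasome, included the only gene with an 8-base site. SYVN1 (NCBI gene 84447) encodes HRD1, the ubiquitin ligase of this route. It had 39.9, 45.2 and 42.8 CPM in miR-125a-5p libraries 1 to 3, against 49.6, 46.7 and 47.4 CPM in control libraries 1 to 3. Every miR-125a-5p library lay below every control library. The log2 fold change was -0.17 (SE 0.12, 95% interval -0.41 to 0.078), with an edgeR p of 0.173 and an adjusted p of 0.898. SYVN1 shares 7.24% of its exon bases with FAU on the same strand, which had 81.2, 79.6 and 73.8 CPM in miR-125a-5p libraries and 109, 72.9 and 74.0 CPM in control libraries. Control library 1 was the highest of the 6 for both SYVN1 and FAU. MRPL49, on the opposite strand, shares 6.48% of the exon bases of SYVN1 and was lowest in control library 1. It had 25.8, 23.7 and 27.8 CPM in miR-125a-5p libraries and 20.8, 28.1 and 27.3 CPM in control libraries.

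EDEM1, a lectin that marks glycoproteins for degradation and the gene with 3 sites of 7 bases, had 552, 518 and 585 CPM in miR-125a-5p libraries 1 to 3. Its control libraries 1 to 3 had 613, 579 and 586 CPM. The groups overlapped by a narrow margin, between miR-125a-5p library 3 and control library 2, and the log2 fold change was -0.10 (95% interval -0.28 to 0.072, adjusted p = 0.919). SEL1L, the adaptor of HRD1, had 114, 118 and 77.1 CPM in miR-125a-5p libraries and 99.2, 102 and 108 CPM in control libraries. Its miR-125a-5p library 3 was far below the other 5, and without that library the log2 fold change was 0.16 in place of -0.0023. HERPUD1, which gathers the degradation complex, had a log2 fold change of 0.017 (interval -0.27 to 0.31).

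The 5 genes with a site of 7 or 8 bases had log2 fold changes from -0.17 (SYVN1) to 0.0059 (ATF6), 4 of them negative, with a median of -0.022. Over the 3112 tested genes with such a site the median was -0.029. The 7 genes with a 6-base match only ran from -0.56 (ATF5) to 0.24 (ERN1), 4 positive and 3 negative. Their median was 0.012, beside 0.011 over 1661 tested genes of that class. The 23 genes with no match had a median of -0.0087, beside 0.015 over 8016 tested genes with none.

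Of the sensors, ERN1 (NCBI gene 2081) had the third smallest p of the 35. ERN1 encodes IRE1, the enzyme that splices XBP1. It had 28.3, 25.5 and 28.4 CPM in miR-125a-5p libraries 1 to 3, against 22.3, 26.9 and 20.4 CPM in control libraries 1 to 3. Control library 2 lay inside the range of the miR-125a-5p libraries, and the log2 fold change was 0.24 (SE 0.15, 95% interval -0.072 to 0.56), with an edgeR p of 0.125 and an adjusted p of 0.884. EIF2AK3, the sensor PERK, was at -0.040 and ATF6 at 0.0059. The interval of ATF6 was -0.19 to 0.20.

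XBP1 (NCBI gene 7494) had 39.7, 43.8 and 44.4 CPM in miR-125a-5p libraries 1 to 3, against 41.8, 38.0 and 38.7 CPM in control libraries 1 to 3. Control library 1 exceeded miR-125a-5p library 1, so the groups overlapped, and the log2 fold change was 0.11 (SE 0.12, 95% interval -0.14 to 0.36, edgeR adjusted p = 0.947). Counts per gene do not separate spliced from unspliced XBP1, so IRE1 activity is not read out here.

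The 7 genes with an ER stress element had log2 fold changes from -0.15 (CRELD2) to 0.35 (CANX), 4 positive and 3 negative, with a median of 0.090. CANX, PDIA6, XBP1 and HSP90B1 were the positive ones, and HSPA5, CALR and CRELD2 the negative ones. The 6 genes with a C/EBP-ATF element ran from -0.25 (CHAC1) to 0.30 (ASNS), 2 positive and 4 negative.

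**Figure D4:**
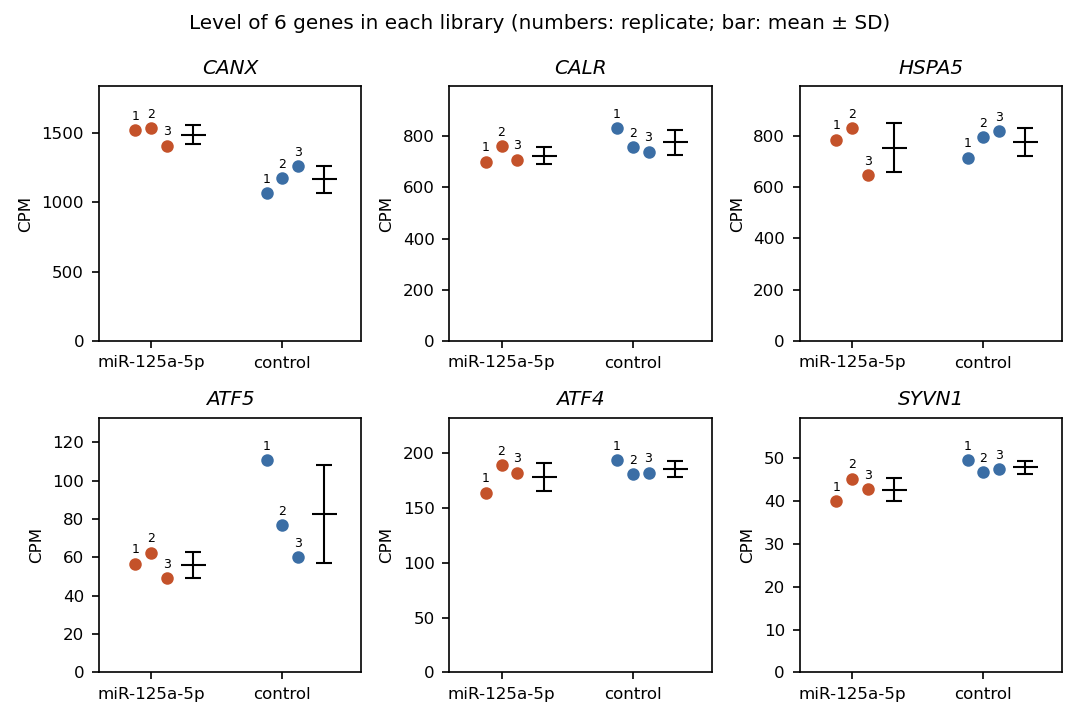
CPM of 6 genes in each of the 3 miR-125a-5p libraries (red, left) and 3 control libraries (blue, right), with the replicate number above each point and the mean ± SD beside it; all axes start at 0. CANX lies higher and SYVN1 lower in every miR-125a-5p library, and for ATF5 the control libraries spread from 60.2 to 111 CPM.

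All 6 stress transcription factors and regulators around ATF4 had negative log2 fold changes, with a median of -0.13, and none passed the test; for TRIB3 the sign depended on single libraries. Control library 1 was the highest of the 6 libraries for 4 of them (66.7%), against 21.3% of all tested genes. Without control library 1 the median was -0.053. The part of that library in the result was not tested.

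ATF5 (NCBI gene 22809), a transcription factor induced through PERK and linked to mitochondrial stress, had the second smallest p of the 35 and the largest fold change. It had 56.7, 62.4 and 49.0 CPM in miR-125a-5p libraries 1 to 3, against 111, 76.8 and 60.2 CPM in control libraries 1 to 3. Control library 3 lay below miR-125a-5p library 2, so the groups overlapped. The means were 56.0 ± 6.73 CPM in miR-125a-5p libraries and 82.6 ± 25.8 CPM in control libraries (SD, n = 3 each). The log2 fold change was -0.56 (SE 0.15, 95% interval -0.88 to -0.24), with an edgeR p of 0.00131 and an adjusted p of 0.393. Over the alternatives the log2 fold change ran from -0.74 to -0.29 and the adjusted p from 0.00235 to 0.734.

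The value of ATF5 depended on single control libraries. Without control library 1 the log2 fold change was -0.29 (adjusted p = 0.734), and without control library 3 it was -0.74 and passed (adjusted p = 0.0274). ATF5 also passed without the filter on low counts. NUP62, on the opposite strand, shares 21.2% of the exon bases of ATF5 and had 161 ± 6.98 CPM in miR-125a-5p libraries and 149 ± 5.21 CPM in control libraries (SD, n = 3 each). IL4I1, which shares 2.54% of them, had a log2 fold change of -0.30 (edgeR adjusted p = 0.799) and was also highest in control library 1, at 89.1 CPM.

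ATF4 (NCBI gene 468) had 164, 189 and 182 CPM in miR-125a-5p libraries 1 to 3, against 194, 181 and 182 CPM in control libraries 1 to 3. The groups overlapped and the log2 fold change was -0.057 (SE 0.094, 95% interval -0.25 to 0.14, edgeR adjusted p = 0.966). DDIT3 (NCBI gene 1649), which encodes CHOP, a late factor of unresolved stress, had 24.2, 22.5 and 22.04 CPM in miR-125a-5p libraries and 28.2, 24.0 and 23.5 CPM in control libraries. Its log2 fold change was -0.14 (SE 0.15, 95% interval -0.45 to 0.17, edgeR adjusted p = 0.942), and 27.2% of its exon bases overlap the methionyl-tRNA synthetase gene on the other strand. That gene, MARS1, had 88.4, 99.2 and 99.3 CPM in miR-125a-5p libraries 1 to 3, against 86.5, 82.8 and 87.2 CPM in control libraries 1 to 3. Without the strand setting, reads of this pair cannot be told apart.

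CEBPG (NCBI gene 1054), a C/EBP partner of ATF4, had 80.9, 78.1 and 72.3 CPM in miR-125a-5p libraries 1 to 3, against 89.4, 77.2 and 90.02 CPM in control libraries 1 to 3. Control library 2 lay among the miR-125a-5p libraries, and the log2 fold change was -0.15 (SE 0.11, 95% interval -0.37 to 0.071), with an edgeR p of 0.174 and an adjusted p of 0.898. ATF3, another stress factor, and TRIB3, a pseudokinase that restrains ATF4, were at -0.12 and -0.046, with intervals of -0.46 to 0.23 and -0.34 to 0.25.

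Among genes of amino acid supply, ASNS (NCBI gene 440), asparagine synthetase and a standard readout of ATF4, had 14.6, 12.4 and 8.74 CPM in miR-125a-5p libraries 1 to 3. Its control libraries 1 to 3 had 7.75, 12.4 and 8.95 CPM. ASNS was highest in miR-125a-5p library 1 and lowest in control library 1, the other 4 libraries overlapped, and the log2 fold change was 0.30 (SE 0.23, 95% interval -0.18 to 0.78), with an edgeR p of 0.214 and an adjusted p of 0.916. Another annotated transcript on the same strand shares 44.6% of its exon bases.

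The serine pathway showed no common direction. PHGDH, its entry enzyme, PSAT1, the next step, and SHMT2, the mitochondrial enzyme that makes glycine from serine, had log2 fold changes of 0.15, 0.030 and -0.090. The cystine carrier SLC7A11 and its heavy chain SLC3A2 had 0.17 and -0.0087. CHAC1 had -0.25 with an interval of -1.35 to 0.84.

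Control library 1 was the lowest of the 6 libraries in 4 of these 7 genes (57.1%), against 20.8% of all tested genes. Their median on the log2 CPM scale lay -0.25 from the control mean in that library, and from -0.050 to 0.13 in the other 5. The median log2 fold change of the 7 genes was 0.030, and without control library 1 it was -0.12. With 4 genes positive and 3 negative the group had no common direction, and the sign of its median changed when that library was left out. The part of that library in these values was not tested.

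**Figure D5:**
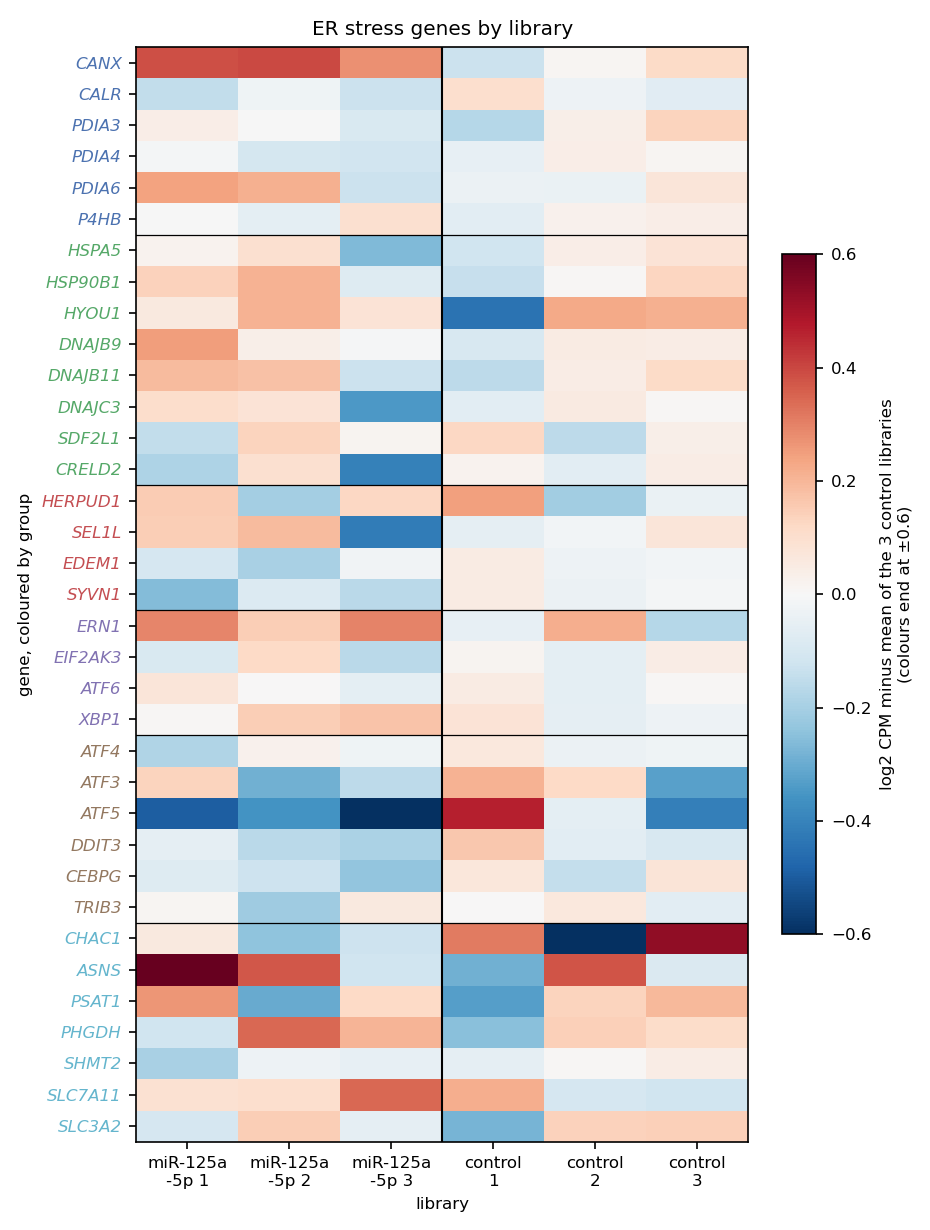
Log2 CPM of each gene (rows, grouped and coloured as in the fold change plot) in each library (columns) minus the mean of the 3 control libraries; red is above and blue below that mean, and colours end at 0.6 in either direction, which 3 values exceed. CANX is red in all 3 miR-125a-5p libraries. ATF5 is blue in them and also in control library 3 (-0.41), and red in control library 1. HSPA5, DNAJC3 and CRELD2 are bluest in miR-125a-5p library 3 and HYOU1 in control library 1.

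The wider pathway was read from 5 further lists with 123 genes, of which 119 passed the filter on low counts. None of the 119 passed edgeR's test after adjustment, and DESeq2 and limma voom called 0, while 6 were higher and 6 lower at an unadjusted edgeR p under 0.05. Over all tested genes 2.69% were higher and 3.22% lower at that p. The libraries did not overlap for 11 genes on the higher side and 5 on the lower, against 5.31% and 5.90% of all tested genes.

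Other ER folding genes (35 tested) had 24 positive fold changes and a median of 0.042. ERP29, an ER folding factor, had 335, 351 and 352 CPM in miR-125a-5p libraries, against 470, 358 and 393 CPM in control libraries, a log2 fold change of -0.23 (edgeR adjusted p = 0.767). DNAJC10, a disulphide reductase that serves degradation, had 0.16 (adjusted p = 0.898). In the further degradation genes (25 tested, 13 positive, median 0.023), EDEM3, a mannosidase, had 0.23 and DERL2, a channel component, 0.40 (edgeR adjusted p = 0.751 and 0.850).

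Other genes of unfolded protein signalling (16 tested) had 5 positive fold changes and a median of -0.029. TNFRSF10B, a death receptor induced by CHOP, had a log2 fold change of -0.34, and EIF2AK4, the kinase GCN2 that senses uncharged tRNA, -0.15 (edgeR adjusted p = 0.843 and 0.898).

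Further ATF4 targets and transporters (23 tested) were split, with 12 positive and a median of 0.034. At an unadjusted edgeR p under 0.05 there were 2 higher and 4 lower, against 2.69% and 3.22% of all tested genes. The libraries did not overlap for 3 genes on the higher side and 3 on the lower, against 5.31% and 5.90%. DDIT4 and ALDH1L2, the 2 with the smallest p, were both on the lower side. DDIT4, an inhibitor of mTOR signalling, had 8.69, 7.83 and 5.15 CPM in miR-125a-5p libraries, against 16.7, 10.4 and 13.8 CPM in control libraries. No miR-125a-5p library reached a control library, and the log2 fold change was -0.92 (edgeR adjusted p = 0.373). ALDH1L2, a mitochondrial folate enzyme, had -0.27 (edgeR adjusted p = 0.726).

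The cytosolic aminoacyl-tRNA synthetases, which load tRNAs and include many ATF4 targets, had 13 of 20 positive and a median of 0.12, beside 0.0011 over all tested genes. For 5 of the 20 every miR-125a-5p library lay above every control library, against 5.31% of all tested genes. At an unadjusted edgeR p under 0.05 there were 3 higher and 1 lower. FARSB, the beta subunit of phenylalanyl-tRNA synthetase, had 78.5, 77.8 and 79.3 CPM in miR-125a-5p libraries, against 59.0, 60.1 and 65.8 CPM in control libraries. Its log2 fold change was 0.35 (SE 0.11, edgeR adjusted p = 0.501). The lower one was WARS1, for tryptophan, named after its values were seen. It had 164, 180 and 162 CPM in miR-125a-5p libraries, against 217, 214 and 177 CPM in control libraries, with overlap between the groups and a log2 fold change of -0.27 (SE 0.099, edgeR adjusted p = 0.670).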

How the data were processed

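Per the labels' protocols, RNA was extracted with Trizol and libraries were made with Illumina protocols. The authors deposited raw, unnormalized counts for each gene. The tools were bcl2fastq, TopHat and edgeR and the build was hg19, per the submitters' processing notes. Their versions, the counting tool, its annotation and its strand setting were not given in the sources used here. Of 26347 rows, 99.5% matched a symbol by NCBI gene ID, and 0 columns belonged to no library.

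Counts were tested over the whole table with edgeR 4.0.16 (filterByExpr, TMM, glmQLFit and glmQLFTest, package defaults, no covariate) in R 4.3.3, with Benjamini-Hochberg adjustment and a threshold of 0.05. The steps were tested on simulated data. SE is the size of the log2 fold change divided by the square root of F, and intervals use the fit's degrees of freedom. TPM, sites and overlaps use GENCODE 29 on GRCh38, which differs from hg19. Alternatives were RLE size factors, no filter, DESeq2 1.42.0, limma voom (limma 3.58.1), legacy = FALSE, the replicate number as a block, each library left out and, for sites, any annotated 3′ UTR. Replicate pairs differed by 4.01 to 12.0 chi-square units per gene, above sampling noise, and pairs between the groups by 5.14 to 13.4. All 6 libraries were counted, though such values do not show whether they came from separate cultures.

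Members and lists were chosen with earlier results of these data known. Full statistics are given for the 6 members with the smallest p and for HSPA5, XBP1, ATF4, DDIT3 and ASNS, and for up to 2 genes of each further list. Protein sequences were not used here, and a gene the naming rule would give is not reported here.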

Additional observations from a re-analysis of the deposited data

How the results depend on the processing

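The count of called genes among the 35 was 0 in the reported fit, 2 with no filter on low counts (CANX higher, ATF5 lower), and 0 to 1 with 1 library left out, where the 1 was ATF5 without control library 3. Among the 119 further pathway genes it was 0, and 1 (DDIT4) with no filter. Over all genes 4 were called, against 52 with no filter, 9 with the replicate block, 13 with DESeq2 and 3 to 14 with 1 library left out. Whether the replicate numbers pair the libraries is not stated. Same-numbered libraries correlated at -0.016 to 0.056 in their deviations from group means, and the other pairs at -0.064 to 0.046. With 3 libraries per group these values cannot decide whether the libraries are paired. The block called 0 of the 35. The cause of the differences in called genes was not tested. The median of the ATF4 group was -0.19 to -0.053 and that of the amino acid group -0.12 to 0.11 with 1 library left out, beside -0.13 and 0.030 in the reported fit. The site count stayed at 12 genes with any annotated 3′ UTR. Of 420 fold changes of single genes over the alternatives, 391 kept their direction and 29 did not, in 14 genes with sizes up to 0.25. SLC3A2 had 0.0068 with limma voom. When a library was omitted, the log2 fold change ran from -0.11 to 0.048 for PDIA3, -0.034 to 0.045 for P4HB, -0.12 to 0.054 for HSPA5, -0.11 to 0.20 for HYOU1, -0.12 to 0.090 for DNAJC3 and -0.076 to 0.069 for SDF2L1. It ran from -0.083 to 0.15 for HERPUD1, -0.11 to 0.16 for SEL1L, -0.13 to 0.015 for EIF2AK3, -0.030 to 0.035 for ATF6 and -0.10 to 0.033 for TRIB3. For CHAC1 it was -0.59 to 0.039, for PSAT1 -0.13 to 0.18 and for SLC3A2 -0.14 to 0.061. The log2 ratio of CANX to CALR, whose alternatives were chosen after seeing the data, was 0.45 and ran from 0.34 to 0.54. The number of libraries and the counts of CHAC1, ASNS, ERN1 and EIF2AK3 limit precision, and intervals cover the spread between these libraries only.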
